A study of Mus musculus with 19 samples.

Results

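Kidney RNA of mice given Cmpd17b was compared between the hypertensive strain BPH/2J and its normotensive counterpart BPN/3J, with 9 of the 19 libraries of the study, 1 library per mouse. The BPH/2J group held the kidneys of 4 mice (replicates 2 to 5) and the BPN/3J group those of 5 mice (replicates 1 to 5). All were adults that had received Cmpd17b by intraperitoneal injection, once a day for 28 days, at 50 mg/kg/day. A library labelled BPH/2J Cmpd17b replicate 1 was left out because it held a heart profile, with Myh6, the heart muscle myosin, at 14200 CPM, the count of a gene scaled to a common library size. Mice of both strains that received vehicle for the same 28 days, 5 BPH/2J and 4 BPN/3J, gave the strain difference without the compound, in other animals. BPN/3J is the normotensive control strain of the model, so genetic background and hypertension cannot be told apart in any of these comparisons. Every library carries batch label 2. The p-values measure the spread between these mice.

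Cmpd17b is a small-molecule agonist of the formylpeptide receptors, which are G protein-coupled receptors best known from leukocytes, where they guide chemotaxis and, with some ligands, help to end inflammation. The kidney sets blood pressure over the long term through sodium and water excretion, through renin and angiotensin, and through the tone of its own vessels, and sympathetic nerves act on each of these. In long-standing hypertension the organ is known for leukocyte entry, matrix deposition and tubular injury. The comparison asks how kidneys of the 2 strains differ when both receive the compound.

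Total counts were 21400111 to 28961333 in the treated BPH/2J libraries and 25546681 to 34244282 in the treated BPN/3J libraries. The kidney's defining markers were present in all 9: Slc34a1, the proximal tubule phosphate transporter, ranged from 3252 to 4810.0 CPM in BPH/2J and from 3278 to 4012 CPM in BPN/3J. Umod of the thick ascending limb ranged from 937 to 2421 and from 939 to 1653 CPM, and Aqp2 of the collecting duct from 169.7 to 433 and from 113 to 234 CPM. Several libraries stood apart. BPH/2J replicate 5 had the lowest total and the highest share of counts from mitochondrial genes, 26.2%, and BPH/2J replicate 4 had 24796 genes with a count against 18969 to 20391 in the rest of its group. In BPN/3J, replicate 1 carried fat cell genes at a summed 378 CPM against 33.9 to 63.7 CPM in the other 4 libraries. The 4 treated BPH/2J libraries also carried heart muscle transcripts, with Myh6 between 24.7 and 28.3 CPM before TMM scaling while no treated BPN/3J library exceeded 1.84 CPM.

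Of 16421 genes tested, 1701 (10.4%) differed between the treated strains at an adjusted p under 0.05 in edgeR's quasi-likelihood test with Benjamini-Hochberg adjustment, the threshold used for a call throughout. In BPH/2J 937 genes were higher (5.71% of those tested) and 764 were lower (4.65%). Changes of at least 1 on the log2 scale, which is a doubling, were seen in 603 of the higher and 377 of the lower genes, and changes of at least 3 in 184 and 110. The 2 groups' values did not overlap for 2094 genes (12.8%), 1439 of them called, with 6.38% of the tested genes above and 6.37% below in BPH/2J. The median log2 fold change of all tested genes was 0.01. Levels below are in CPM after TMM scaling, listed in the order of the replicates, and fold changes are BPH/2J over BPN/3J.

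A call was also checked in 27 alternative settings, which changed the tool, the scaling, the filter or the libraries but kept the heart-profile library out. Of 139 called genes named in what follows or in the gene lists, 105 passed in every one of the 27 in which they were tested. For the others, the settings that lost the call are given where the gene is described.

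Under vehicle, in other mice, edgeR called 1766 genes (10.8%) between the strains, 5.82% of the tested genes higher and 4.94% lower in BPH/2J. The arms are not independent tests, because all 18 kidney libraries shared the same fit, low-count filter and scaling. With only the compared groups fitted, 1330 genes were called under Cmpd17b, 1242 of them also called in the joint fit. In the joint fit, both treatment arms called 1109 genes, which is 65.2% of the calls under Cmpd17b and 62.8% of those under vehicle. The direction was the same for all 1109. Another 592 genes were called under Cmpd17b and not under vehicle, 359 higher and 233 lower. Their vehicle values had the same sign in 564 cases. A call in one arm and not in the other does not show that the arms differ, and the direct test of that, the strain by Cmpd17b interaction, called 5 genes (0.0304%), all of them heart muscle genes described further on.

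**Figure D1:**
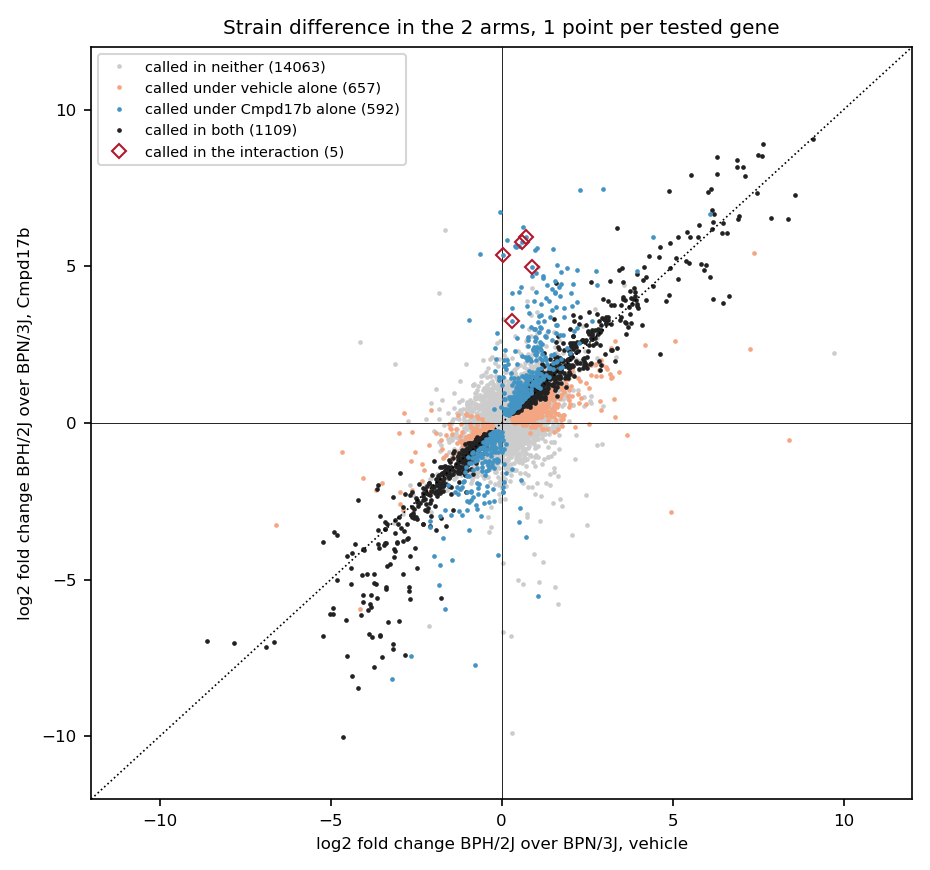
Log2 fold change of BPH/2J over BPN/3J under Cmpd17b (vertical axis) against that under vehicle (horizontal axis), 1 point for each of 16421 tested genes, coloured by the arms in which edgeR called them; the dotted line marks equal values. The 1109 genes called in both arms lie in the quadrants of equal sign, and the 5 genes called in the interaction lie at 2.95 or more above their vehicle values.

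Leaving aside genes with a mean below 1 on the log2 CPM scale, Hdc had the largest rise in treated BPH/2J mice. It encodes histidine decarboxylase, the enzyme that makes histamine. It stood at 434, 524, 409 and 448 CPM in the 4 BPH/2J kidneys and at 0.697, 0.968, 0.893, 1.51 and 0.713 CPM in the 5 BPN/3J kidneys (log2 fold change 8.89, SE 0.47, edgeR adjusted p 3.72e-10). The lowest BPH/2J value was far above the highest BPN/3J value, and under vehicle the log2 fold change was 7.65. The other histamine genes did not follow it: 1 of 8 tested members of the list was called. Hnmt, which methylates histamine, ranged from 10.4 to 20.6 CPM in BPH/2J and from 15.1 to 18.3 CPM in BPN/3J (edgeR adjusted p 0.95). Aoc1, which oxidises histamine, was at 2.53 to 3.52 and 1.02 to 2.1 CPM (edgeR adjusted p 0.454). Mast cells, the classical source of histamine, are marked by the proteases Mcpt1, Cma1, Cpa3 and Tpsb2. These did not exceed 0.288 CPM in any of the 9 libraries.

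Ttr, which encodes transthyretin, the carrier of thyroxine and of the retinol-binding protein complex, was at 125, 162, 141 and 194 CPM against 2.5, 2.9, 2.79, 2.03 and 1.22 CPM (log2 fold change 6.07, SE 0.30, edgeR adjusted p 1.52e-10). Angptl7, a secreted angiopoietin-like protein, was at 279, 355, 352 and 204 CPM against 3.96, 5.14, 4.38, 3.58 and 7.27 CPM (log2 fold change 5.93, SE 0.31, edgeR adjusted p 3.72e-10). Gas6, the vitamin K-dependent ligand of the receptor kinases Tyro3, Axl and Mertk, was at 230.5, 162, 221 and 124 CPM against 33.6, 28.8, 29.3, 29.2 and 24 CPM (log2 fold change 2.67, SE 0.20, edgeR adjusted p 3.44e-08). Groups were fully separated for all 3 genes. For the receptor gene Axl the groups overlapped, at 9.27 to 24.8 CPM in BPH/2J and 11.7 to 14.9 CPM in BPN/3J (edgeR adjusted p 0.641).

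Plppr1, a membrane protein of the lipid phosphatase-related family, was at 30.9, 31, 28.1 and 30.2 CPM against 1.27, 2.05, 1.56, 2.18 and 2.31 CPM, and its SE of 0.19 around a log2 fold change of 4.0 was small (edgeR adjusted p 1.33e-10). Cyp4b1, a cytochrome P450 that hydroxylates fatty acids, was at 2749, 3045, 2874 and 2095 CPM against 252, 306, 285, 273 and 281 CPM (log2 fold change 3.27, SE 0.18, edgeR adjusted p 4.88e-10). BPH/2J replicate 5 had the lowest value of its group for Cyp4b1, Gas6 and Angptl7, and still lay above every BPN/3J library. Csmd2, a large protein of CUB and Sushi domains, was highest in that same library, at 2.01, 2.88, 1.91 and 17.4 CPM against at most 0.0558 CPM in BPN/3J (log2 fold change 7.41, SE 0.99, edgeR adjusted p 4.33e-05).

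Close copies in the genome make a further group of large rises uncertain, since the counting could have divided their reads. Serpina1a and Serpina1d, alpha-1 antitrypsin genes, reached means of 119 and 122 CPM in BPH/2J against 1.29 and 0.322 CPM (log2 fold changes 6.53 and 8.53, edgeR adjusted p 2.56e-09 and 4.88e-10). Their relatives Serpina1b and Serpina1f rose by 2.34 and 1.5. Ahcyl rose by 5.93 on the log2 scale to 247 CPM while its relative Ahcy, the S-adenosylhomocysteine hydrolase of the methylation cycle, fell by 1.91 to 128 CPM from 480.1 CPM in BPN/3J. Il11ra2, Eno1b, Eif3j2, Tma7-ps and Zfp969 rose by 8.17, 5.92, 4.06, 5.74 and 1.97. All 5 were above every BPN/3J library in each BPH/2J library.

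**Figure D2:**
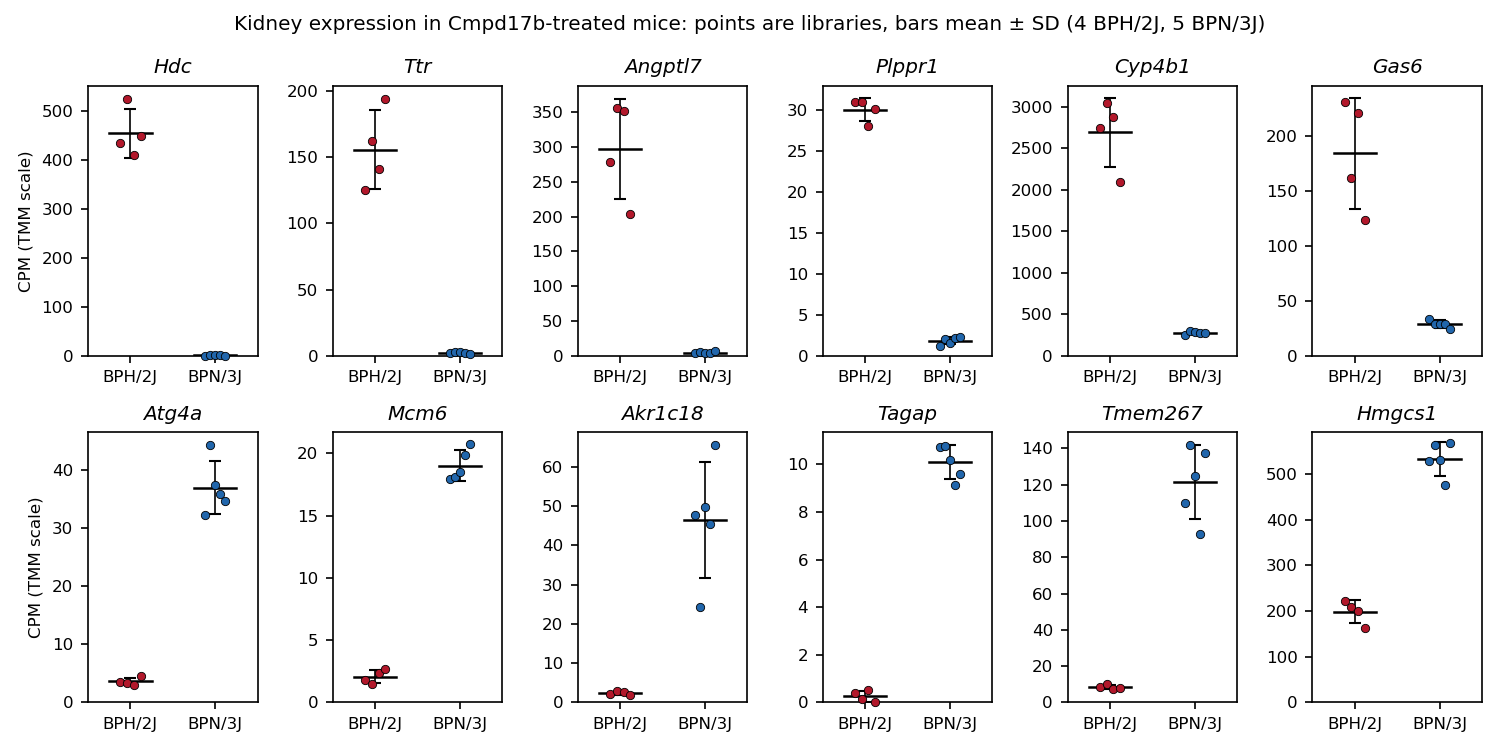
CPM (TMM scale, linear axis from 0) of 12 named genes in the 4 treated BPH/2J and 5 treated BPN/3J kidneys; each point is a library and bars are mean ± SD. In none of the 12 genes do the 2 strains overlap.

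Among the genes that were lower in treated BPH/2J kidneys, several stood at a small fraction of the BPN/3J level. Atg4a, a cysteine protease that processes the Atg8 proteins of autophagy, was at 3.51, 3.33, 3.08 and 4.56 CPM against 32.3, 44.5, 37.5, 35.9 and 34.8 CPM (log2 fold change -3.36, SE 0.27, edgeR adjusted p 9.54e-08). Mcm6, a subunit of the replicative MCM helicase, was at 1.81, 1.48, 2.34 and 2.65 CPM against 17.9, 18.1, 18.5, 19.9 and 20.7 CPM (log2 fold change -3.21, SE 0.44, edgeR adjusted p 5.95e-05). Akr1c18, a hydroxysteroid dehydrogenase that inactivates progesterone, was at 2.04, 2.99, 2.65 and 1.96 CPM against 47.7, 24.2, 49.8, 45.4 and 65.5 CPM (log2 fold change -4.26, SE 0.51, edgeR adjusted p 1.13e-05). The gap between the groups was wide in each, and the fall was present under vehicle too, at log2 fold changes of -2.95, -3.34 and -3.15. Atg4a was the sole member called of 21 tested autophagy genes, whose median was 0.01, and Mcm6 was 1 of 2 called of 20 cell cycle and replication genes. The second was Pcna, the sliding clamp of DNA replication, at -0.56 (edgeR adjusted p 0.0383), a call lost in 8 of 27 settings.

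Tagap, Tlr12 and Sectm1a were among the 8 largest falls taken by the naming rule. Tagap, a GTPase-activating protein of T cell activation, was at 0.401, 0.151, 0.506 and 0 CPM against 10.7, 10.8, 10.2, 9.12 and 9.61 CPM (log2 fold change -5.13, SE 0.54, edgeR adjusted p 2.82e-06). Tlr12, a Toll-like receptor for a parasite protein, was at 0.268, 0.114, 0.273 and 0.461 CPM against 7.7, 8.44, 6.5, 11.2 and 5.26 CPM (log2 fold change -4.85, SE 0.48, edgeR adjusted p 1.32e-06). Sectm1a, a secreted or transmembrane protein, was at 0 to 0.454 CPM against 8.79 to 12.6 CPM (log2 fold change -5.49, SE 0.73, edgeR adjusted p 4.07e-05). None of the 3 overlapped between the strains. Tmem267, a transmembrane protein, fell by 3.83 on the log2 scale and Dnajc28, of the DnaJ co-chaperone family, fell by 2.23.

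Spink6, a Kazal-type serine protease inhibitor, had 2 counts in all 4 BPH/2J libraries together and 646 in the 5 BPN/3J libraries. The BPN/3J level was 200.5 times the BPH/2J level, with an exact 95% interval of 55.3 to 1659 that covers counting error alone. Ugt1a9 and Ugt1a10, glucuronosyltransferases that attach glucuronic acid to drugs and phenols, share exons with other genes of their cluster and are uncertain for that reason. Ugt1a10 was at 8.06, 1.89, 5.88 and 0 CPM against 351, 323, 297, 311 and 97.1 CPM (log2 fold change -6.08, SE 0.95, edgeR adjusted p 0.000268). BPN/3J replicate 5 was the lowest of its group. Ftl1-ps2, a ferritin light chain pseudogene, and Zfp33b, a zinc finger gene, are likewise uncertain, with log2 fold changes of -7.79 and -5.97.

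Genes of blood pressure control were examined by list, and the share of called members is read against 5.71% higher and 4.65% lower among all genes. Of 14 tested nitric oxide and endothelin genes, 4 were higher, none was lower and the median log2 fold change was 0.30. Edn3, which encodes endothelin 3, was at 6.42, 7.45, 6.42 and 3.29 CPM against 1.68, 1.71, 1.2, 1.81 and 1.83 CPM (log2 fold change 1.85, SE 0.29, edgeR adjusted p 0.000207). Arg2, an arginase that competes with nitric oxide synthases for arginine, was at 15.5, 16, 15.8 and 9.69 CPM against 2.44, 0.719, 2.57, 3.84 and 3.16 CPM (log2 fold change 2.5, SE 0.40, edgeR adjusted p 0.000322). Both were separated between the strains. Nos1, the neuronal synthase that the macula densa also makes, was at 1.61, 1.7, 1.83 and 3.4 CPM against 1.11, 1.24, 0.698, 0.517 and 0.645 CPM (log2 fold change 1.32, SE 0.32, edgeR adjusted p 0.0103). Nos3, the endothelial synthase, was at 4.48, 4.35, 4.87 and 7.9 CPM against 2.88, 2.82, 2.99, 2.51 and 4.07 CPM (log2 fold change 0.81, SE 0.20, edgeR adjusted p 0.0105). BPH/2J replicate 5 was the highest library for both synthases, and without it and BPN/3J replicate 1 the call of Nos3 was lost (edgeR adjusted p 0.0869).

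Of 12 tested renin-angiotensin genes, 1 was higher and 3 were lower, with a median of -0.07. Mas1, the receptor of a vasodilator fragment of angiotensin, was at 1.47, 1.17, 1.99 and 2.08 CPM against 4.34, 2.93, 5.39, 5.69 and 3.87 CPM (log2 fold change -1.41, SE 0.28, edgeR adjusted p 0.00248). Enpep, the aminopeptidase that trims angiotensin II, was at 138, 112, 128 and 66.7 CPM against 241, 229.7, 227, 208 and 158 CPM (log2 fold change -0.94, SE 0.21, edgeR adjusted p 0.00684). Mme, which encodes neprilysin, another angiotensin- and natriuretic peptide-cleaving enzyme, had overlapping groups at 168, 118, 129 and 40.3 CPM against 64.1, 27, 34.4, 54.1 and 29.6 CPM (log2 fold change 1.45, SE 0.38, edgeR adjusted p 0.0182), and 4 of 27 settings lost its call. The mineralocorticoid-induced kinase Sgk1 had a log2 fold change of -0.68 (edgeR adjusted p 0.0437) that was lost in 11 of 27 settings.

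The core of the renin-angiotensin cascade did not pass the test. Ren1, the renin gene, was at 88.4, 83.8, 89.2 and 174 CPM in BPH/2J and 172, 175, 162, 80.7 and 134 CPM in BPN/3J (log2 fold change -0.41, SE 0.29, edgeR adjusted p 0.407). Its groups overlapped, with BPH/2J replicate 5 high and BPN/3J replicate 4 low. Under vehicle Ren1 was called lower in BPH/2J, at -0.98 (edgeR adjusted p 0.0346), and the difference between the arms had an edgeR adjusted p of 1.0. Agt, angiotensinogen, and Ace, the converting enzyme, had log2 fold changes of 0.31 and 0.24 (edgeR adjusted p 0.464 and 0.502).

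Among 14 tested adrenergic genes 1 was higher and 2 were lower. Adra2b, the alpha-2B adrenoceptor, was at 59.1, 70.3, 69.1 and 56.5 CPM against 111, 142, 143, 144 and 99.6 CPM (log2 fold change -1.0, SE 0.15, edgeR adjusted p 0.000131). Ddc, the decarboxylase that forms dopamine in the proximal tubule, was at 75.4, 67.9, 73 and 42.2 CPM against 89.4, 118, 114, 131 and 99.6 CPM (log2 fold change -0.77, SE 0.16, edgeR adjusted p 0.00292). Neither overlapped. Slc22a2, an organic cation transporter on the same list, had a log2 fold change of 0.39 that was lost in 17 of 27 settings.

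The receptors that Cmpd17b acts on were close to the limit of detection in whole kidney. Fpr1 ranged from 0 to 0.0779 CPM in BPH/2J and from 0 to 0.158 CPM in BPN/3J, and Fpr2 from 0 to 0.404 and from 0 to 0.111 CPM. Both fell below the filter on low counts and were not tested. Of the 3 tested genes of the list none was called by edgeR, DESeq2 or limma-voom, and 0 had an unadjusted edgeR p under 0.05. Anxa1, the ligand annexin A1, was at 7.19 to 9.23 CPM against 5.05 to 8.62 CPM (edgeR adjusted p 0.393).

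Nephron segment markers moved little as groups. Among the tested members, 1 of 20 proximal tubule genes, 1 of 10 thick ascending limb genes, 2 of 10 distal convoluted tubule genes, 2 of 10 intercalated cell genes and 0 of 10 principal cell genes were called by edgeR. The principal cell list had 1 gene at an unadjusted p under 0.05 and 1 call in DESeq2. List medians ran from -0.38 in the distal convoluted tubule to 0.23 in the thick ascending limb. In bulk kidney, fewer cells of a type and less RNA per cell cannot be told apart. Slc8a1, the sodium-calcium exchanger of the distal convoluted and connecting tubule, was at 62.9, 55, 66.7 and 46.7 CPM against 125, 166, 137, 141 and 117 CPM (log2 fold change -1.25, SE 0.20, edgeR adjusted p 0.000378). Calb1, the calcium-binding calbindin of the same segment, had a log2 fold change of -0.60 that 8 of 27 settings lost. Slc12a3, the segment's sodium chloride cotransporter, was at 175 to 356 CPM against 232 to 529 CPM (edgeR adjusted p 0.208). Slc4a1, the anion exchanger of acid-secreting intercalated cells and of red blood cells, was at 39.5, 33.3, 35.1 and 39.8 CPM against 22.4, 16, 17.5, 19.6 and 16.3 CPM (log2 fold change 1.01, SE 0.18, edgeR adjusted p 0.000767). The other single calls were less steady: Fbp1, a gluconeogenic enzyme of the proximal tubule, at -0.50, was lost in 12 of 27 settings, Tmem207, of the thick ascending limb, at 1.4 in 7 of 27, and Aqp6, the intercalated cell aquaporin, at 0.86 in 6 of 27.

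Sodium transport genes gave 1 higher and 2 lower of 24 tested, with a median of -0.06. Slc12a2, the sodium-potassium-chloride cotransporter of basolateral membranes, was at 67.2, 82.8, 56.5 and 53.3 CPM against 33.9, 28.6, 26.3, 28 and 25.7 CPM (log2 fold change 1.19, SE 0.14, edgeR adjusted p 1.32e-05). Every BPH/2J library was above every BPN/3J library. Kcnj15, a basolateral potassium channel, had a log2 fold change of -0.47 that 11 of 27 settings lost.

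Transporters of sugars, amino acids and organic ions held single genes that differed clearly. Slc6a18, a proximal tubule transporter of neutral amino acids, was at 161, 179.6, 161 and 220.0 CPM against 635, 560.4, 616, 661 and 755 CPM (log2 fold change -1.84, SE 0.23, edgeR adjusted p 1.94e-05). Slc2a5, the fructose transporter, was at 106, 111, 110.3 and 124 CPM against 87.6, 54.1, 64.8, 90.1 and 72.7 CPM (log2 fold change 0.61, SE 0.13, edgeR adjusted p 0.00441). Slc47a1, the exporter that moves organic cations into the tubular lumen, was at 499, 540.1, 504 and 429.8 CPM against 702, 788, 748, 744 and 739 CPM (log2 fold change -0.59, SE 0.10, edgeR adjusted p 0.000454). All 3 separated the strains, and Slc47a1 with little scatter. Slco1a6 and Slco1a4, organic anion transporters, rose by 0.79 and 1.45 (log2, with edgeR adjusted p of 0.000817 and 0.00489). Counted as lists, 2 of 28 sugar, phosphate and amino acid transporters were higher and 2 lower, and 3 of 28 organic ion transporters were higher and 1 lower. Slc2a2, the facilitative glucose transporter of basolateral membranes, and Slc38a3, a glutamine transporter, had log2 fold changes of -0.53 and 1.22, lost in 3 of 27 and 5 of 27 settings.

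Sterol synthesis was divided within the pathway: of 20 tested cholesterol genes, 2 were higher and 2 were lower, with a median of -0.21. Hmgcs1, the synthase that feeds the mevalonate pathway, was at 222, 209, 199.5 and 163 CPM against 529, 562, 531, 475 and 568 CPM (log2 fold change -1.42, SE 0.13, edgeR adjusted p 3.03e-07). Insig1, the sterol-sensing retention protein of SREBP processing, was at 33.1, 28.3, 37.6 and 20.8 CPM against 45.6, 42.6, 48.4, 52.5 and 47.4 CPM (log2 fold change -0.66, SE 0.15, edgeR adjusted p 0.00549). Both were lower in every BPH/2J library. In contrast Cyp51, the lanosterol demethylase, was at 339, 413, 348 and 239.5 CPM against 172, 90.7, 164, 158 and 174 CPM (log2 fold change 1.14, SE 0.21, edgeR adjusted p 0.00132). Sqle, squalene epoxidase, was at 98, 79.4, 95.2 and 54.3 CPM against 45.4, 33.9, 51.3, 51.6 and 44.9 CPM (log2 fold change 0.85, SE 0.20, edgeR adjusted p 0.00867). The same 4 genes had the same signs under vehicle, at -1.48, -0.62, 1.0 and 0.62.

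Of 26 tested fatty acid oxidation genes, 3 were higher and 1 was lower. Beside Cyp4b1, the higher genes were Cyp4a14, an omega-hydroxylase, at 5.89, 3.93, 7.24 and 2.08 CPM against 0.856, 1.19, 1.01, 1.55 and 1.19 CPM (log2 fold change 2.06, SE 0.46, edgeR adjusted p 0.00577), and Cpt2, the inner-membrane carnitine palmitoyltransferase, at 147, 139, 139 and 122 CPM against 106, 87.2, 97.2, 102 and 108 CPM (log2 fold change 0.45, SE 0.10, edgeR adjusted p 0.0041). Acaa2, the mitochondrial thiolase of the final step, was at 74.7, 93.4, 76.1 and 96.4 CPM against 143, 189.7, 190.0, 189.9 and 233 CPM (log2 fold change -1.15, SE 0.20, edgeR adjusted p 0.000842). The list median was 0.04.

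Steroid enzymes gave 3 lower and none higher of 18 tested. Beside Akr1c18 these were Srd5a2, a steroid 5-alpha-reductase, at 11.5, 11.8, 11.4 and 9.98 CPM against 20.3, 25.6, 22.1, 20.2 and 20.7 CPM (log2 fold change -0.96, SE 0.11, edgeR adjusted p 4.52e-06), and Hsd3b3, a hydroxysteroid dehydrogenase, at -0.63, a call that 6 of 27 settings lost. Among 31 tested cytochrome P450 and glucuronidation genes, 2 were higher and 4 lower. Ugt2b37, uncertain because of its close relatives, was at 156, 163, 121 and 139 CPM against 7.76, 9.54, 7.76, 8.24 and 13.5 CPM (log2 fold change 3.95, SE 0.31, edgeR adjusted p 8.32e-08). Cyp2j13, of the arachidonic acid epoxygenase family, was at 339, 386, 353 and 316 CPM against 477, 775, 632, 495 and 545 CPM (log2 fold change -0.75, SE 0.17, edgeR adjusted p 0.00615). By these counts the direction within the family of glucuronosyltransferases differed by gene. Ugt2b37, Ugt1a9 and Ugt1a10 are all uncertain in how their reads were divided, so the opposite signs are uncertain too.

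Antioxidant genes gave 2 higher and 1 lower of 25 tested. Gstm1, a glutathione transferase, was at 404, 344, 402 and 312 CPM against 223, 137, 209, 223 and 258 CPM (log2 fold change 0.80, SE 0.18, edgeR adjusted p 0.00678). Gss, glutathione synthetase, and Sod2, the mitochondrial superoxide dismutase, had log2 fold changes of 0.55 and -0.35, lost in 7 of 27 and 15 of 27 settings. None of 8 tested NADPH oxidase genes was called by edgeR, DESeq2 or limma-voom, and 2 had an unadjusted edgeR p under 0.05.

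Mitochondrially encoded transcripts took 19.7 ± 4.50% (SD, n = 4) of counts in treated BPH/2J kidneys and 13.6 ± 0.914% (SD, n = 5) in treated BPN/3J kidneys. The 2 ranges did not overlap, and the exact two-sided permutation test gave p = 0.0159, the smallest that 4 against 5 allows. Without BPH/2J replicate 5 the difference shrank from 6.01 to 3.83 percentage points. The 10 most abundant genes of each library also took a larger share in BPH/2J, 25.7 ± 6.05% against 18.4 ± 1.62% (exact two-sided permutation p = 0.0317). All 13 mitochondrially encoded genes had a positive log2 fold change, with a median of 0.67, and 4 were called. ND2, a subunit of complex I, was at 8234, 9474, 8872 and 15344 CPM against 6471, 5543, 6102, 5996 and 5748 CPM (log2 fold change 0.81, SE 0.16, edgeR adjusted p 0.0021), and COX1, of complex IV, was likewise separated (log2 fold change 0.67, SE 0.16, edgeR adjusted p 0.00737). ND4 and CYTB had log2 fold changes of 0.67 and 0.73, and 2 of 27 and 4 of 27 settings lost the calls, leaving out BPH/2J replicate 5 among them for both. Of 33 tested nuclear genes of oxidative phosphorylation, 1 was called. Under vehicle edgeR called none of the 13 mitochondrially encoded genes, with 4 at an unadjusted p under 0.05 and a median of 0.40, while DESeq2 called 2 and limma-voom 1.

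Antigen presentation genes formed the list with the largest called share on the lower side. MHC class II molecules display peptides to CD4+ T cells on macrophages, dendritic cells and B cells. The coactivator Ciita switches their genes on through factors bound at a shared promoter module, which ends in a Y box, the inverted CCAAT element that NF-Y binds. The stretch before the start site is shown for 4 genes of the list that were lower in treated BPH/2J kidneys, 2 chain genes and the pair for the H2-DM beta chains. They were picked for display because the letters in capitals lie within the stretch, so that all 4 hold a match is no result. Sequences are RefSeq's for GRCm38.p6, 5′ to 3′ on the gene's strand, and cover the 110 bases before the start site. Capitals mark CTGATTGG, or ATTGG where the longer run was not found, and ATTGG is contained in CTGATTGG. H2-Aa lies on the minus strand at chr17:34287824-34287933, and H2-Eb1, H2-DMb1 and H2-DMb2 lie on the plus strand at chr17:34305757-34305866, chr17:34153081-34153190 and chr17:34145139-34145248.
H2-Aa: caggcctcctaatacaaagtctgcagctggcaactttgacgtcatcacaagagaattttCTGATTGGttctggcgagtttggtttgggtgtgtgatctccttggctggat
H2-Eb1: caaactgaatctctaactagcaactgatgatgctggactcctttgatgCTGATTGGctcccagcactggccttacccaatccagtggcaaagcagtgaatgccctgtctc
H2-DMb1: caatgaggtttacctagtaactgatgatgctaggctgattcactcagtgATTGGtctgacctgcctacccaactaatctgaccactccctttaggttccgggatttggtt
H2-DMb2: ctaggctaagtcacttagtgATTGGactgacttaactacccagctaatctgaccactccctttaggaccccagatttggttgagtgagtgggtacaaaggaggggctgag
The match starts 51 bases before the start site in H2-Aa, 62 in H2-Eb1, 61 in H2-DMb1 and 90 in H2-DMb2. Of the list's 11 members, 8 had a promoter in the RefSeq table, and CTGATTGG was found in 4 of those 8 within 250 bases upstream on either strand. Of all 32851 promoters in the table, 3.83% held CTGATTGG and 33.8% held ATTGG in the same window. H2-DMa, which was lower too, has 2 promoters in the table, of which neither held CTGATTGG and 1 held ATTGG, starting 198 bases before the start site. Of the other promoters of the list, those of H2-Eb2 and H2-Oa, which were not tested, held CTGATTGG and that of H2-Ob, which was not called, held ATTGG. A match describes the letters and not a bound site.

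Of 9 tested members of the MHC class II list, 7 were lower in treated BPH/2J and all 9 had a negative log2 fold change, with a median of -1.38. H2-Ab1, H2-Aa and H2-Eb1 lie in a run of 4 called neighbours on chromosome 17. H2-DMa, H2-DMb1, H2-DMb2 and H2-Ob lie on that chromosome too, so these members do not count as separate loci. H2-Ab1, a class II beta chain, was at 16.3, 12.1, 23.9 and 26.1 CPM against 50.2, 60.1, 62.4, 59 and 133 CPM (log2 fold change -1.9, SE 0.38, edgeR adjusted p 0.00216). H2-Eb1, another beta chain, whose promoter is among those printed, was at 15.2, 11.5, 23.2 and 16 CPM against 32.1, 45.6, 42.7, 31.7 and 62.8 CPM (log2 fold change -1.38, SE 0.34, edgeR adjusted p 0.0107). Both separated the strains, and BPN/3J replicate 5 was the highest library in each. H2-DMa, a chain of the H2-DM peptide loader, was at 2.78, 1.97, 3.46 and 3.29 CPM against 5.32, 6.28, 6.81, 7.2 and 11 CPM (log2 fold change -1.35, SE 0.28, edgeR adjusted p 0.00368). Ciita itself was at 1.54, 0.984, 2.06 and 1.27 CPM against 3.96, 3.37, 2.46, 5.43 and 5.7 CPM (log2 fold change -1.51, SE 0.35, edgeR adjusted p 0.00858).

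The remaining class II genes are described although they lie outside the naming rule and were chosen after their values were seen. H2-Aa, the alpha chain that pairs with H2-Ab1, was at 21.3, 13.5, 28.6 and 22.4 CPM against 39.2, 50.7, 47.9, 37.5 and 64.1 CPM (log2 fold change -1.16, SE 0.35, edgeR adjusted p 0.0392), a call lost in 8 of 27 settings. H2-DMb1 and H2-DMb2, which resemble each other closely, had log2 fold changes of -1.54 and -2.11 (edgeR adjusted p 0.043 and 0.0132), and 13 of 27 settings lost the call of H2-DMb1. H2-DMb2 was checked in 3 leave-one-out fits and was called in each. Cd74, the invariant chain that escorts class II molecules, did not pass, at 49.5, 34.8, 61.7 and 83.7 CPM against 85.9, 111, 111, 86.5 and 181 CPM (log2 fold change -1.0, SE 0.34, edgeR adjusted p 0.0702). H2-Ea, an alpha chain that was on no list, had a log2 fold change of -1.42 (edgeR adjusted p 0.014). The summed level of the list was 76.8 to 158 CPM in treated BPH/2J and 223 to 472 CPM in treated BPN/3J, without overlap.

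Under vehicle none of the 9 class II genes was called by edgeR, DESeq2 or limma-voom, 0 had an unadjusted edgeR p under 0.05, and the list median was -0.27. The interaction called none of them by these tools either, with 6 at an unadjusted edgeR p under 0.05 and a median difference between the arms of -1.09, so a difference between the arms was not shown. One vehicle library bears on that comparison: BPH/2J vehicle replicate 2 had a summed class II level of 454 CPM before scaling and a leukocyte sum of 224 CPM, where the other 8 vehicle libraries had at most 255 and 110 CPM. Without it the vehicle median was -0.74 with 1 gene lower, 8 class II genes were lower under Cmpd17b, and the median difference between the arms was -0.65. Leaving out 1 library at a time gave 5 to 8 class II genes lower under Cmpd17b. It was 5 without BPN/3J Cmpd17b replicate 5, the high library. It was also 5 without BPH/2J Cmpd17b replicate 2, and 6 without BPH/2J Cmpd17b replicate 4. With all 18 kidney libraries, DESeq2 called 8 members lower and limma-voom 6.

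**Figure D3:**
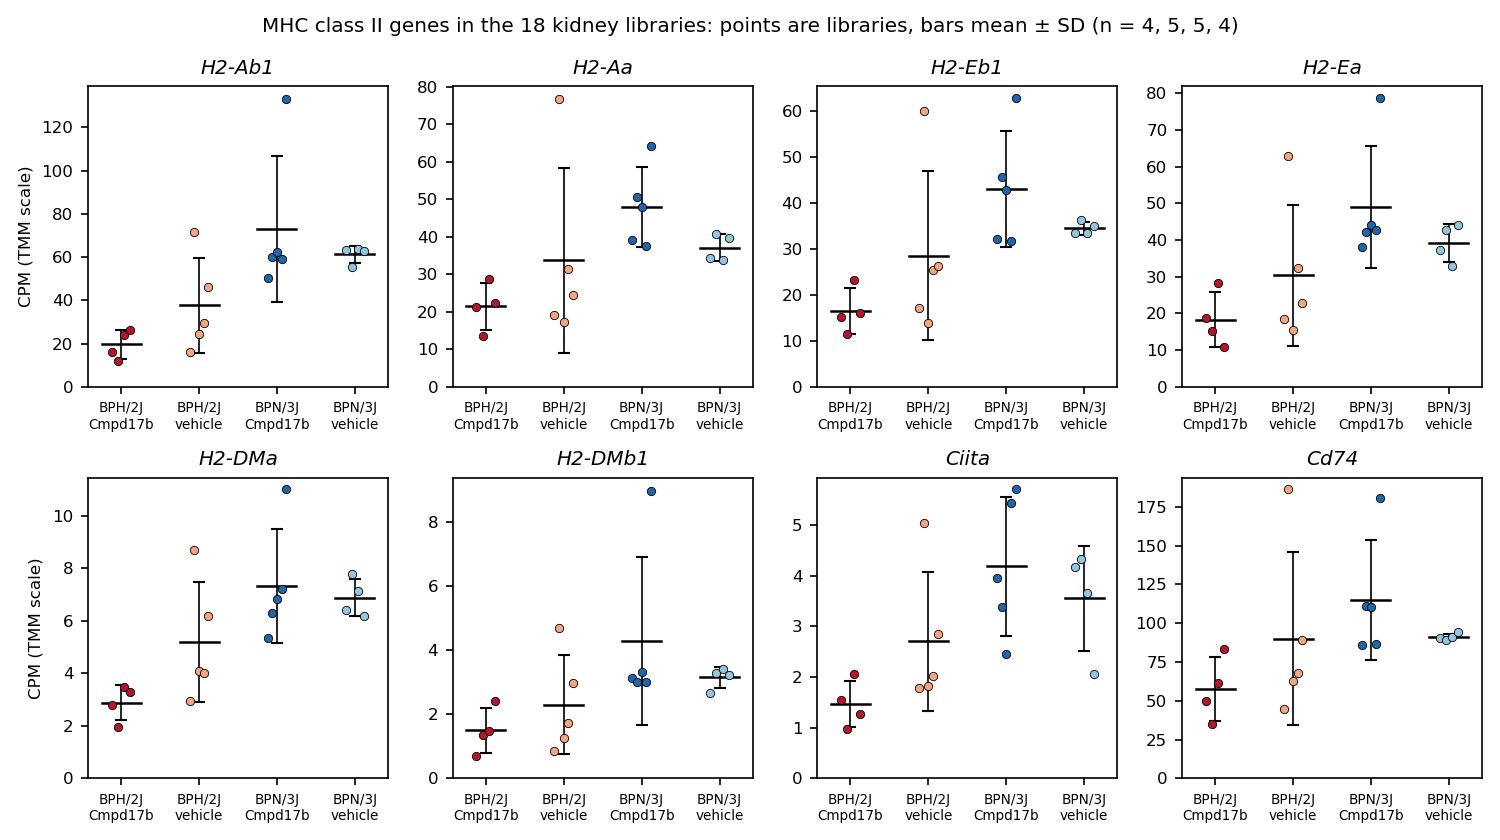
CPM (TMM scale) of 8 class II genes in the 4 groups, BPH/2J Cmpd17b (n = 4), BPH/2J vehicle (n = 5), BPN/3J Cmpd17b (n = 5) and BPN/3J vehicle (n = 4); each point is a library and bars are mean ± SD. Under Cmpd17b, H2-Ab1 lies at 12.1 to 26.1 CPM in BPH/2J and at 50.2 to 133 CPM in BPN/3J, and under vehicle the strains overlap.

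Markers of leukocytes had mostly negative log2 fold changes too, and their part in the class II result was not tested. Of 20 tested leukocyte genes 2 were called, both lower, 18 had a negative sign, and the list median was -0.65. The summed level was 66.7 to 85.0 CPM in BPH/2J and 79.8 to 110 CPM in BPN/3J, with overlap, and no member was at 0 in every library of either group. Cd3e of T cells was at 0.134, 0.0757, 0.0389 and 0.115 CPM against 0.507, 0.47, 0.251, 0.517 and 0.645 CPM (log2 fold change -2.34, SE 0.62, edgeR adjusted p 0.0183). These levels rest on few counts, and 3 of 22 settings lost the call. Csf1r, the receptor that defines kidney macrophages, had a log2 fold change of -0.07 (edgeR adjusted p 0.828), and C1qb, a complement gene of macrophages, one of -0.99 (edgeR adjusted p 0.108).

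Of 15 tested MHC class I genes 3 were lower and all 15 had a negative sign, with a median of -0.58. H2-Q4, a non-classical class I gene, was at 16.7, 14.1, 18.7 and 11.6 CPM against 22.8, 23.3, 23.1, 27.4 and 29.4 CPM (log2 fold change -0.72, SE 0.14, edgeR adjusted p 0.00234). H2-Q7, another, was at 1.04, 0.908, 1.52 and 2.59 CPM against 3.55, 3.71, 4.41, 3.8 and 5.5 CPM (log2 fold change -1.49, SE 0.32, edgeR adjusted p 0.00452). Both are uncertain because class I genes resemble each other, and the third call, H2-T23 at -0.58, was lost in 16 of 27 settings. B2m, the shared light chain, was not called at -0.60 (edgeR adjusted p 0.0555).

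Complement genes gave 1 higher and 1 lower of 19. Cd55, which protects cells from complement by breaking up its convertases, was at 11.2, 8.97, 13.7 and 8.3 CPM against 3.52, 4.54, 3.04, 3.66 and 3.09 CPM (log2 fold change 1.56, SE 0.18, edgeR adjusted p 7.61e-06). C4a, a complement C4 gene with a close relative, was at 16.8, 20.2, 14.4 and 15.5 CPM against 79.6, 79.5, 62.1, 62.1 and 70.7 CPM (log2 fold change -2.08, SE 0.30, edgeR adjusted p 9.52e-05). Interferon-stimulated genes gave 1 lower of 20, Xaf1, at 2.58, 3.29, 1.79 and 4.67 CPM against 7.64, 6.89, 6.25, 7.02 and 6.25 CPM (log2 fold change -1.16, SE 0.30, edgeR adjusted p 0.0149), a call lost without BPH/2J replicate 4 (edgeR adjusted p 0.052). Of 4 tested neutrophil genes S100a9, a calcium-binding alarmin, was called at 1.37 and lost in 7 of 27 settings. DESeq2 and limma-voom each called 2 of the 4.

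Red blood cell genes gave 3 higher and 1 lower of 7 tested. Hbb-bs, a beta globin, was at 513, 508, 609 and 556 CPM against 393, 267, 306, 272 and 314 CPM (log2 fold change 0.82, SE 0.21, edgeR adjusted p 0.0133). Slc4a1, which red cells share with intercalated cells, was the second, and Alas2, the erythroid heme synthesis enzyme, the third at 0.84, lost in 13 of 27 settings. The list's summed level was 1130 to 1743 CPM in BPH/2J and 629 to 899 CPM in BPN/3J, without overlap.

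Fibrosis genes, which are a common readout of hypertensive kidney damage, did not pass the test between the treated strains. None of 28 tested matrix genes and none of 21 profibrotic signalling genes was called by edgeR under Cmpd17b, where 10.4% of all genes were. At an unadjusted p under 0.05 edgeR had 6 and 5 of them, and DESeq2 called 2 and 1 and limma-voom 0 and 0. With 1 library left out at a time, edgeR called 1 to 2 matrix genes higher under Cmpd17b in 3 fits and 1 profibrotic gene in 3; leaving out BPH/2J replicate 3 gave 2 and 1. Among the matrix genes 22 had a positive sign and the median log2 fold change was 0.33. Col1a1, the collagen I alpha 1 chain, was at 5.96, 5.07, 6.7 and 9.46 CPM against 4.31, 5.64, 6.7, 4.14 and 5.98 CPM (log2 fold change 0.34, SE 0.45, edgeR adjusted p 0.677). Col3a1, of collagen III, was at 12.2, 8.1, 10.2 and 16.9 CPM against 12.1, 8.6, 7.76, 5.76 and 10.4 CPM (log2 fold change 0.40, SE 0.41, edgeR adjusted p 0.579). Fn1, fibronectin, was at 27.4, 21.6, 17.3 and 47.1 CPM against 17, 10.3, 14, 13.4 and 21.7 CPM (log2 fold change 0.89, SE 0.33, edgeR adjusted p 0.0958). All 3 overlapped. Under vehicle 12 of the 28 matrix genes and 6 of the 21 profibrotic genes were higher in BPH/2J, with medians of 0.91 and 0.57. The profibrotic count under vehicle fell to 3, and the matrix count to 6, without BPH/2J vehicle replicate 2, a fit that called 2 matrix genes higher under Cmpd17b. The interaction called none of them by edgeR, DESeq2 or limma-voom, with 2 of each list at an unadjusted edgeR p under 0.05.

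Tubular injury genes gave 3 higher and none lower of 18. Cp, the copper carrier ceruloplasmin, was at 51.3, 43, 42.5 and 44.4 CPM against 20.2, 10.5, 12.8, 16.6 and 23.4 CPM (log2 fold change 1.44, SE 0.25, edgeR adjusted p 0.0008). Clu, the chaperone clusterin, was at 204, 236, 241 and 185 CPM against 85.8, 149.6, 126.5, 110.4 and 110.5 CPM (log2 fold change 0.89, SE 0.21, edgeR adjusted p 0.00761). Both were above every BPN/3J library in each BPH/2J library. Vim, the intermediate filament vimentin, had a log2 fold change of 0.87 that 19 of 27 settings lost. Havcr1 and Lcn2, the injury markers KIM-1 and NGAL, were not called, at 18.2 to 29.6 against 4.87 to 18.2 CPM and 0.87 to 1.5 against 0.387 to 0.977 CPM (edgeR adjusted p 0.206 and 0.426).

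Podocyte genes gave 3 higher and 1 lower of 12. Cdkn1c, a cell cycle inhibitor of mature podocytes, was at 13.5, 9.16, 14.1 and 32.3 CPM against 5.42, 7.63, 6.78, 5.39 and 4.86 CPM (log2 fold change 1.51, SE 0.30, edgeR adjusted p 0.00216). Magi2, a scaffold of the slit diaphragm, was at 8.13, 5.52, 7.67 and 11.8 CPM against 5.29, 3.93, 4.41, 4.21 and 3.8 CPM (log2 fold change 0.93, SE 0.18, edgeR adjusted p 0.00185). BPH/2J replicate 5 was the highest library for both. Nphs1, nephrin, was not called at 0.54 (edgeR adjusted p 0.331). Clic5, a chloride channel protein of podocyte foot processes and endothelium, was at 119, 113, 105 and 75.8 CPM against 163, 169, 164, 164 and 131 CPM (log2 fold change -0.61, SE 0.15, edgeR adjusted p 0.0129). Its call was lost without BPH/2J replicate 5 and BPN/3J replicate 1 (edgeR adjusted p 0.0685). Among 11 tested vascular smooth muscle genes Rgs5, a pericyte regulator of G protein signalling, rose by 1.24 and Lmod1, an actin nucleator of smooth muscle, fell by 1.87 on the log2 scale.

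**Figure D4:**
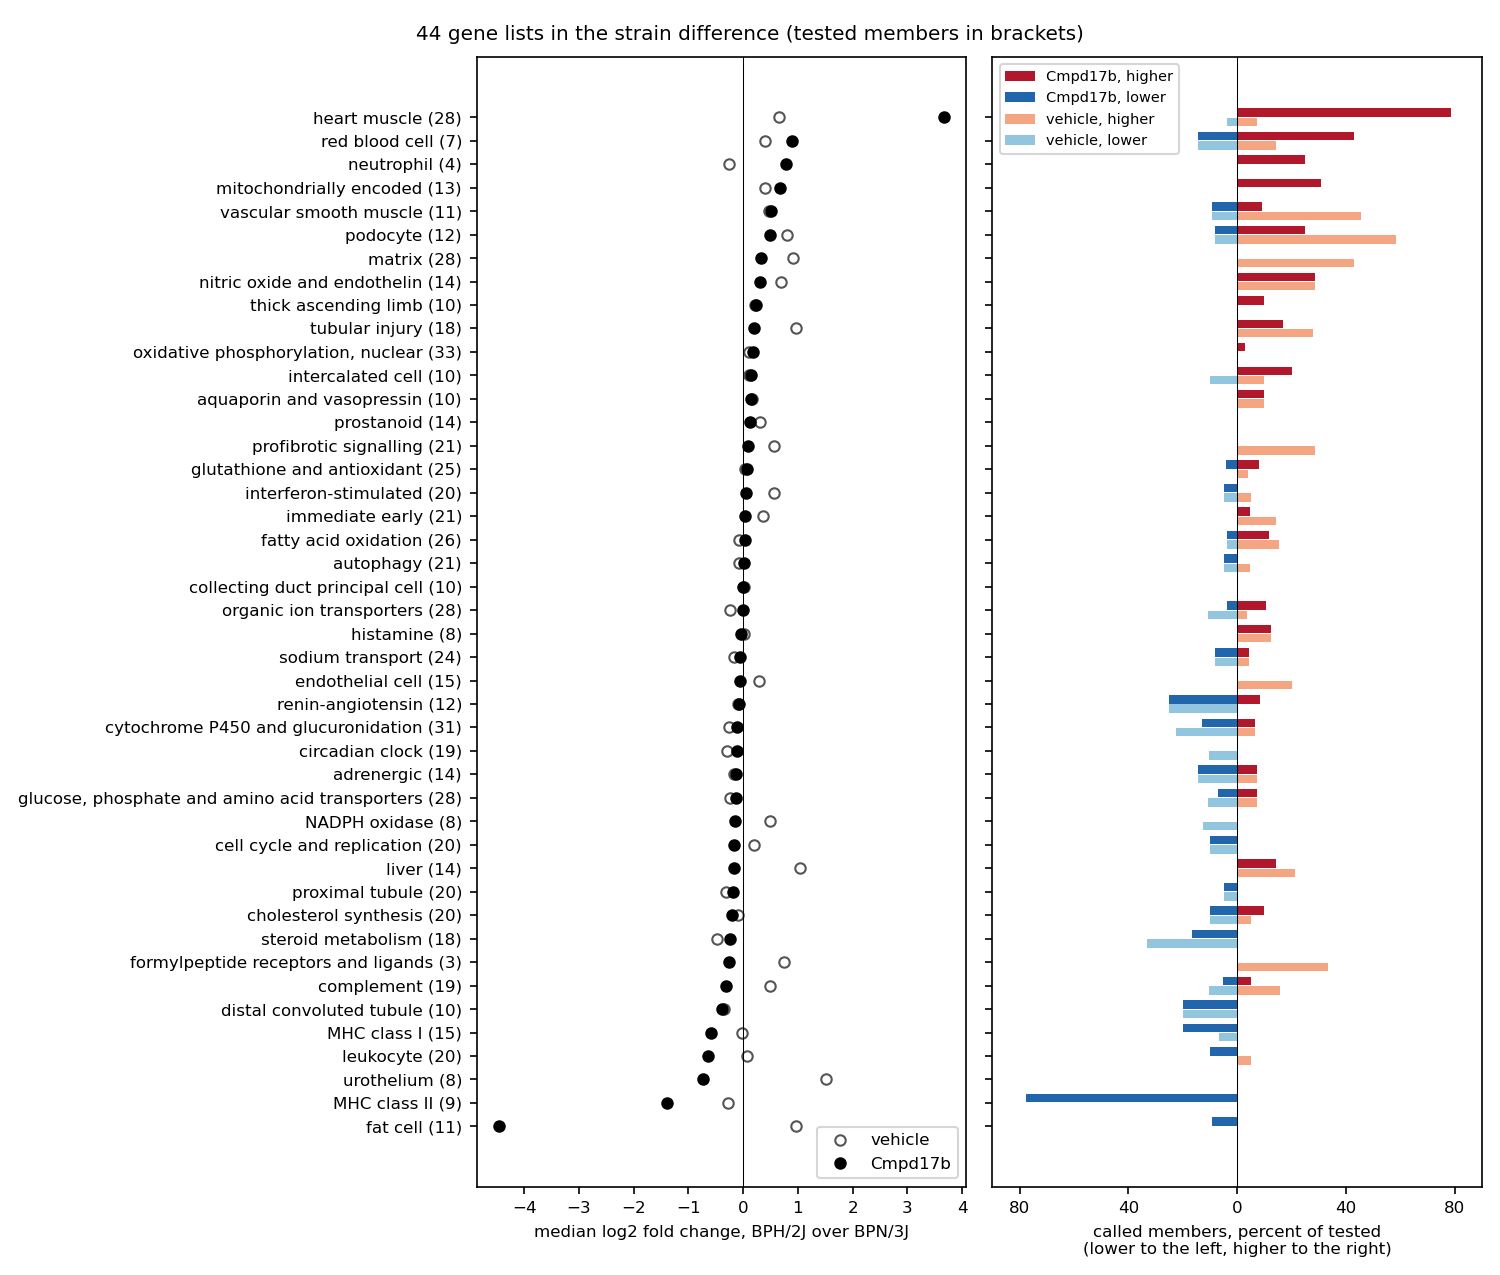
Left, median log2 fold change of BPH/2J over BPN/3J for 44 gene lists, with the number of tested members in brackets, under vehicle (open) and under Cmpd17b (filled). Right, called members in percent of the tested members, higher to the right and lower to the left, for both arms; under Cmpd17b heart muscle genes reach furthest to the right (22 of 28) and MHC class II genes furthest to the left (7 of 9).

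Heart muscle genes were the list with the most calls, 22 higher of 28 tested. They are given here as a property of these libraries, because the left-out library of the same group held a heart profile. Pln, phospholamban, was at 12.3, 12.8, 12.7 and 23.1 CPM in the 4 treated BPH/2J kidneys and at 1.62, 1.33, 1.62, 1.7 and 1.73 CPM in the 5 treated BPN/3J kidneys (log2 fold change 3.25, SE 0.24, edgeR adjusted p 3.44e-08). Tnnt2, cardiac troponin T, was at 17.4, 19.5, 18.3 and 22.5 CPM against 0.38, 0.0277, 0.782, 0.332 and 0.204 CPM (log2 fold change 5.79, SE 0.54, edgeR adjusted p 6.6e-07). Every treated BPH/2J library was above every treated BPN/3J library, and replicate 5 was the highest. The summed heart muscle level was 264 to 399 CPM against 82.6 to 127 CPM in treated BPN/3J. Of the 1701 called genes, 63 were enriched in the left-out library. Enriched means at 20 CPM or more there and at least 20 times the highest library of the other 3 groups. These 63 were of 176 enriched genes that were tested, where 10.4% of all tested genes were called. The definition sets a ceiling on treated BPN/3J and on both vehicle groups, but not on treated BPH/2J. The called share of enriched genes is therefore partly set by the definition and cannot be read against the 10.4%. The part of the left-out library in these values was not tested.

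Fat cell genes were high in 1 treated BPN/3J library. Of 11 tested members all had a negative sign and 1 was called, Thrsp, a lipogenic regulator, at 0.937, 0.719, 1.01 and 0.577 CPM against 40.8, 2.57, 2.79, 2.84 and 2.31 CPM (log2 fold change -3.64, SE 1.14, edgeR adjusted p 0.0494). BPN/3J replicate 1 stood far above the rest, and 18 of 26 settings lost the call. Adipoq, adiponectin, was at 0.201, 0.454, 0 and 0 CPM against 13.6, 0.526, 0.195, 0.849 and 1.05 CPM, high in that library alone (edgeR adjusted p 0.101).

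The interaction test asks whether the strain difference itself differed between Cmpd17b and vehicle. It called 5 genes, all heart muscle genes enriched in the left-out library: Pln, Tnnt2, Ckm, Myl3 and Myh6, with differences between the arms of 2.95, 5.18, 5.35, 5.20 and 4.08 on the log2 scale. Their levels in the vehicle groups were low, with Myh6 at means of 0.828 CPM in BPH/2J and 0.432 CPM in BPN/3J. In 18 leave-one-out fits the interaction call of Pln was kept each time. The call was lost in 10 of the 18 for Tnnt2, 14 for Ckm, 14 for Myl3 and 13 for Myh6. Outside the enriched genes the smallest edgeR adjusted p was 0.818. At an unadjusted p under 0.05 the interaction had 529 genes (3.22%). DESeq2 called 15, 14 of them enriched in the left-out library, and limma-voom 7, all enriched there. The definition of enriched sets a ceiling on every group except treated BPH/2J. The share of enriched genes among the interaction calls of each tool is therefore partly set by it.

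Among genes averaging 1 or more in log2 CPM outside the heart genes, none was called, and 3 of the 5 with the smallest interaction p are described. Zbed5, a gene derived from a transposase, had means of 2.83 and 1.92 CPM under Cmpd17b and of 1.81 and 2.6 CPM under vehicle, in the order BPH/2J and BPN/3J (edgeR interaction p 0.00107, adjusted 0.981). Trib2, a pseudokinase, had means of 69.9 and 70.8 CPM under Cmpd17b and 55.3 and 126.2 CPM under vehicle (edgeR interaction p 0.00138, adjusted 1.0). Acvr2b, an activin receptor, had means of 19 and 19.4 CPM and of 18.1 and 34.5 CPM (edgeR interaction p 0.00323, adjusted 1.0). In Trib2 and Acvr2b the treated strains were level and the vehicle BPN/3J mean stood highest.

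Called genes were also described by position, using the order of genes in the reference table. Of 15872 tested genes with a chromosome, 1611 were called, and 548 of these had a called neighbour. There were 13 runs of at least 4 called neighbours, with 63 genes. On the autosomes the called share ran from 6.09% on chromosome 10 to 13.7% on chromosome 4, and it was 6.10% on the X chromosome. On the Y chromosome 1 of 5 tested genes was called, and of the mitochondrial genome 4 of 15.

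The 3 longest runs were on chromosomes 13, 2 and 5. On chromosome 13, 7 neighbours were called. Fgf10, a growth factor of branching epithelia, was at 0.636, 1.25, 0.623 and 0.923 CPM against 4.75, 5.2, 4.24, 4.73 and 3.36 CPM (log2 fold change -2.38, SE 0.34, edgeR adjusted p 9.76e-05). Nnt, the mitochondrial transhydrogenase that makes NADPH, was at 165, 145, 155 and 82.7 CPM against 246, 254, 242, 252 and 230.1 CPM (log2 fold change -0.83, SE 0.15, edgeR adjusted p 0.00097). Tmem267 was at 8.36, 10.1, 7.51 and 8.13 CPM against 109.7, 142, 125, 92.6 and 137 CPM. Paip1, a partner of the poly(A)-binding protein, differed least at -0.46, a call lost in 4 of 27 settings, and Gm10732 was the sole gene of the run that was higher, at 2.77.

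The run on chromosome 2 held 7 zinc finger and predicted genes that resemble each other, so their counts are uncertain: Zfp970, Gm14403 and Gm14322 were lower and Gm14325, Gm14326, Zfp971 and Zfp931 were higher. Gm14326 was at 12.7, 15.3, 15 and 12.5 CPM against 1.96, 1.91, 1.54, 1.99 and 2.27 CPM (log2 fold change 2.84, SE 0.14, edgeR adjusted p 1.52e-10). Zfp931, at 0.59, was lost in 3 of 27 settings. The run on chromosome 5 held 6 genes, of which Gm26808 had no count in treated BPH/2J and 68 in treated BPN/3J, at least 14.1-fold lower by a floor of 3 counts over the group. The other 5 were higher, among them Gtpbp6, a GTP-binding protein, by 1.03, Plcxd1, a phospholipase-like protein, by 1.28 and Zfp605 by 1.84. In each run the vehicle arm gave the same sign for every gene. Symbols that start with Zfp, a large family of zinc finger genes, were called in 44 of 378 cases (11.6%), 21 higher and 23 lower, close to the background of 10.4%.

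**Figure D5:**
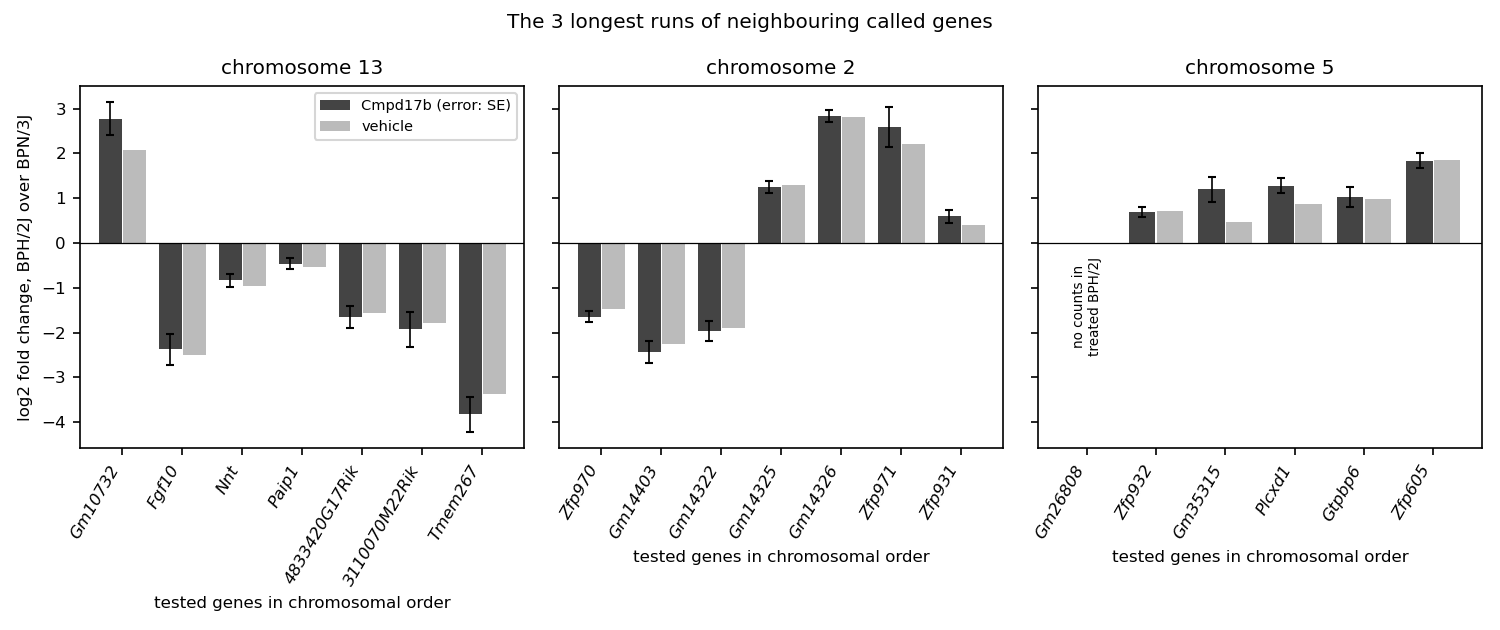
Log2 fold change of BPH/2J over BPN/3J for the genes of the 3 longest runs of called neighbours, on chromosomes 13, 2 and 5; dark bars are Cmpd17b with SE and light bars vehicle. Signs are equal in both arms for each gene drawn, and Gm26808, without counts in treated BPH/2J, is given as text.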

How the data were processed

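Kidney polyA RNA was sequenced as paired reads (PE150), and the deposited table holds estimated counts per gene, expected counts that need not be whole, which the authors made from the reads. Trim Galore 0.6.7, STAR 2.7.9a and the genome build mm39 (GRCm39) are named per the submitters' processing notes. No counting tool is named there, and the gene annotation is not given in the sources used here. For the tests the values were rounded.

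All 18 kidney libraries entered 1 fit, edgeR 4.0.16's quasi-likelihood test (robust) with TMM scaling on genes passing filterByExpr (minimum count 10, total 15), with contrasts for each arm and the interaction. Of 40413 genes, 29717 had a count. P-values were adjusted by Benjamini-Hochberg with a threshold of 0.05, and the common biological coefficient of variation was 0.251. The script was tested on simulated data. DESeq2 1.42.0, limma-voom (limma 3.58.1), other scaling and filters, the compared groups alone, all 19 libraries and leaving out each library were alternatives. Leaving out BPH/2J replicate 5 together with BPN/3J replicate 1 was added after seeing the data.

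The members and gene lists were chosen with earlier results of these data known. Named genes are the 8 largest rises and falls (among genes averaging 1 or more in log2 CPM), the next 6 by p, both without predicted loci, up to 4 called genes of each of 44 lists, set single genes, the interaction's 10 smallest p, the 5 largest differences between the arms and the 3 longest runs of called neighbours, 152 in all, of which a few are not reported here. Named after their values were seen were H2-Aa, H2-DMb1, H2-DMb2, H2-Ea, Cd74, B2m, Csf1r, C1qb, Adipoq, Serpina1b, Serpina1f, Ahcy, Slc34a1, Umod, Aqp2, Nphs1, Slc12a3, Havcr1, Lcn2, Mcpt1, Cma1, Cpa3, Tpsb2, Hnmt and Aoc1. Shares of counts were compared by exact permutation tests. Promoters and gene order came from RefSeq tables for GRCm38.p6, matched by symbol for 15875 of 16421 tested genes, and no coordinate was carried between builds. Replicate libraries of 1 group correlated at 0.949 to 0.996.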

Additional observations from a re-analysis of the deposited data

Results flagged for a closer look

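In the treated groups, 303 sets of 4 or 5 values were examined for a value set apart from the rest by Dixon's criterion at its 95% level, which chance meets in about 1 of 20 sets, and 32 met it. BPH/2J replicate 5, the library with the lowest total and the highest mitochondrial share, held most of them. It was the highest of its group for Csmd2 at 17.4 CPM, Ftl1-ps2 at 0.750, Vim at 62.9, Nos1 at 3.40, Nos3 at 7.90, Ier2, an immediate early gene whose call was lost in 15 of 27 settings, at 27.9, Ren1 at 174, Fpr2 at 0.404 and Icam1, an adhesion molecule, at 20.4 CPM. Among heart muscle genes it was highest for Pln at 23.1 CPM, the chaperone Hspb7 at 11.0, Myl3 at 16.0, Myh6 at 33.9 and Myl2 at 18.9 CPM. In the runs of neighbours it was highest for 4833420G17Rik at 21.5, Plcxd1 at 11.4 and Gtpbp6 at 31.3 CPM. Arg2, at 9.69 CPM, was the gene in which it was lowest by this criterion.

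In the other treated BPH/2J libraries, replicate 2 was high for Ugt1a9 at 0.368 CPM, replicate 3 for Spink6 at 0.0757 CPM and replicate 4 for Sgk1 at 31.1 CPM. In treated BPN/3J mice, replicate 5 was high for Spink6 at 9.41, Vim at 31.9 and H2-Ab1 at 133 CPM, and low for Ugt1a10 at 97.1 and Clic5 at 131 CPM. Replicate 1 was high for Kcnj15 at 1115, Alas2 at 7.51 and Thrsp at 40.8 CPM. Replicate 2 was low for Pln at 1.33 and Cyp51 at 90.7 CPM, and replicate 3 for Edn3 at 1.2 CPM.

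The interaction test in edgeR called 5 heart muscle genes. The arms differed by 2.95 for Pln, 5.18 for Tnnt2, 5.35 for Ckm, 5.20 for Myl3 and 4.08 for Myh6 on the log2 scale. Pln alone kept its call in all 18 leave-one-out fits. The library labelled BPH/2J Cmpd17b replicate 1, which was used in no comparison, had Myh6 at 14200 CPM before TMM scaling.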

How the results depend on the processing

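The number of genes called under Cmpd17b stayed within 1.5 times the 1701 reported in every alternative run, from 1290 to 2277, the latter with DESeq2, and leaving out 1 library gave 1290 to 1749. With all 19 libraries, the heart profile included, 1446 were called, 980 higher and 466 lower, and the vehicle count was 566. Leaving out 1 library gave 1226 to 2490 under vehicle. The interaction called 15 genes with DESeq2, 0 with all 19 libraries, 0 without the genes enriched in the left-out library, 1 without BPH/2J replicate 5 and BPN/3J replicate 1, and 1 to 6 when 1 library was left out; the cause was not tested. The mitochondrial share differed by 3.83 to 7.14 points when 1 library was left out and by 8.13 points with all 19. With all 19 libraries the direction turned for Slc8a1 (0.15), Thrsp (0.46), Acaa2 (0.33), Nnt (0.12) and Iigp1 (1.32), and 44 of 139 named calls were lost. Over all 28 alternatives, 82 of the 139 held in each in which they were tested and 57 were lost in at least 1. No paired analysis was possible because the replicate numbers follow accession order and no label ties mice of different groups. The interaction has no value when the compared groups alone enter. Depth limits genes under about 1 CPM, and 217 of the calls were below 0.5 on the log2 scale.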
